A study of Mus musculus with 6 samples.

Results

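The S100 genes measured in the mouse pancreas were the 10 listed members S100a1, S100a4, S100a6, S100a8, S100a9, S100a10, S100a11, S100a13, S100a14 and S100a16. They were taken by name from the gene family, with earlier results of these data known. Of the 10, 9 have a row among the 22556 genes listed for each mouse. S100a4, often used as a marker of fibroblasts and macrophages, was not analysed here. RNA-sequencing of whole pancreas was carried out on 6 wild-type C57BL/6 mice aged 8 weeks, with 2 mice in each of 3 groups. The saline mice were controls, the AP mice received cerulein (also spelled caerulein) to induce acute pancreatitis, and the polyI:C-pretreated AP mice (polyI:C + AP) received polyI:C before cerulein. No mice given polyI:C without cerulein were among the samples, so these data hold no measurement of polyI:C alone. Cerulein is an analogue of cholecystokinin that overstimulates the enzyme-secreting acinar cells, and polyI:C is a synthetic double-stranded RNA that mimics viral RNA. The question for this gene family was how its epithelial and myeloid members stood in AP, and where they stood when AP followed polyI:C.

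S100 proteins are small calcium-binding proteins with a pair of EF-hand motifs, and most work as dimers that bind a target protein once calcium is bound. S100A6, S100A10, S100A11, S100A14 and S100A16 are found in many epithelia, where S100A10 pairs with annexin A2 and S100A11 with annexin A1. S100A8 and S100A9 form the heterodimer calprotectin, which is abundant in neutrophils and monocytes and is released in inflammation. S100A1 is known above all from striated muscle, and S100A13 is a broadly expressed member linked to the export of growth factors that lack a signal peptide.

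All members lie on chromosome 3 (GRCm38, GENCODE M21). S100a1 (ENSMUSG00000044080, 90511034 to 90514392, minus strand) and S100a13 (ENSMUSG00000042312, 90514435 to 90524581, plus strand) stand head to head, with 42 bases between their annotated starts. S100a14 (ENSMUSG00000042306, 90526856 to 90528837, plus strand) begins 2274 bases beyond S100a13. S100a16 (ENSMUSG00000074457, 90537254 to 90543151, plus strand) lies 8416 bases further on. S100a6 (ENSMUSG00000001025, 90612882 to 90624181, plus strand), S100a8 (ENSMUSG00000056054, 90668978 to 90670035, plus strand) and S100a9 (ENSMUSG00000056071, 90692632 to 90695721, minus strand) complete this part of the cluster. S100a11 (ENSMUSG00000027907, 93520488 to 93526287, plus strand) and S100a10 (ENSMUSG00000041959, 93555080 to 93564643, plus strand) are separated from it by 2824766 bases and from each other by 28792 bases.

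3 stretches of this cluster are shown because they stand before the genes on which the results turn, namely the most strongly raised epithelial member, the raised myeloid member, and the head-to-head pair whose differences had opposite signs. Capitals mark motif matches, and each sequence is read 5′ to 3′ on the strand of its gene. The promoter sequences come from RefSeq on GRCm38.p6 and cover the 250 bases before the RefSeq start.
S100a11, chr3:93520246-93520495, plus strand: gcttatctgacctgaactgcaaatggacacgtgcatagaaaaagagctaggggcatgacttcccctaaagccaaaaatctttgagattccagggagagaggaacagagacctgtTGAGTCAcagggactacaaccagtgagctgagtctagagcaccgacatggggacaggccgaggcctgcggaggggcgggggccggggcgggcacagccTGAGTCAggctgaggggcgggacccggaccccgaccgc
S100a9, chr3:90695722-90695971, minus strand: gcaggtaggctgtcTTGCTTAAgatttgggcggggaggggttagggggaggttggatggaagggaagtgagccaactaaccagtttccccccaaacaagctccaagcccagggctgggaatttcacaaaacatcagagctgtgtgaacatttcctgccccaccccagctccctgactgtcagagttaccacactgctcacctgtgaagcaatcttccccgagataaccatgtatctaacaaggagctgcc
Between S100a1 and S100a13, chr3:90514393-90514434, plus strand: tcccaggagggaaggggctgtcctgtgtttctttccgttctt

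The motifs searched on both strands of these windows were the AP-1 motif TGANTCA, the C/EBP motif TTGCNNAA, the interferon-stimulated response element (GAAA, any 2 bases, GAAA), the TEAD motif GGAATG and the TATA box TATAAA. The S100a11 window held 2 AP-1 matches, at 136 to 130 and at 38 to 32 bases before the start, and its last 8 bases lie inside the gene as GENCODE annotates it. One AP-1 match or more was present in 5.296% of all 17693 promoter windows of this length that belong to genes with values here. In the S100a9 window a C/EBP match lay 236 to 229 bases before the start, and 8.489% of all windows held this motif. The S100a8 window held a TATA box 30 to 25 bases before the start (8.303% of all windows), and 1 of the 2 S100a16 windows an AP-1 match at 192 to 186 bases. Both matches lie inside the annotated genes, as do 93 bases of the S100a8 window and all 250 of that S100a16 window. The S100a4 window held a TATA box 31 to 26 bases before the start. The interferon-stimulated element (2.758% of all windows) and the TEAD motif (11.42%) were not matched in any member window. S100a10 and S100a14 had no entry. A match is a stretch of letters and was not tested as a binding site.

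Levels are given in TPM, reads per transcript length scaled to the same total in every sample, which allows genes of a sample to be compared. Depth was estimated from the spacing of the low TPM values at between 3297568 and 3975926 reads in the saline mice and between 6932635 and 10856292 in the other 4, so low genes were measured least precisely in the saline mice. A difference was called where the adjusted p was at most 0.05 and the fold change at least 2, by limma on log2(TPM + 0.5) with Benjamini-Hochberg adjustment over all 16814 genes tested. The 9 members with values all passed the filter of a mean of at least 1 TPM. Differences below are on this log2 scale. For low genes they depend strongly on the 0.5 added and on any single mouse near 0. The p-values and intervals rest on the spread between the 2 mice of a group, estimated over all 3 groups together. The classes epithelial and myeloid come from general knowledge and were not measured here, and S100a1 and S100a13 are in neither. In whole tissue, fewer cells of a type and less RNA per cell cannot be told apart.

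The summed level of the 9 measured members was 226 TPM ± 11.1 in saline, 861 ± 1.44 in AP and 717 ± 15.99 in polyI:C + AP mice (SD, n = 2 each), and its make-up differed as well as its amount. The saline mice had 234 and 218 TPM over the 9 genes, AP mice 862 and 860 TPM, and polyI:C + AP mice 706 and 728 TPM. The 3 groups did not overlap in this sum. The smallest 2-sided p that an exact permutation test can give with 2 mice against 2 is 0.333, so the sums and ratios given here carry no p.

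Among these 9 genes S100a1 was the highest in the saline mice, at 40.4% and 38.5% of their summed level. S100 genes outside the 10 members, such as S100g, are not in this sum. In the AP mice S100a1 made up 6.88% and 8.34% of the sum over these 9 genes, and in the polyI:C + AP mice 11.7% and 12.7%. S100a6, S100a10 and S100a11 together held 35.4% and 31.6% in saline mice and 74.2% and 73.5% in AP mice. With polyI:C before AP, these 3 genes made up 63.6% and 69.8%. Such shares are taken over the 9 genes within a mouse, so they do not depend on the scaling between samples.

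**Figure D1:**
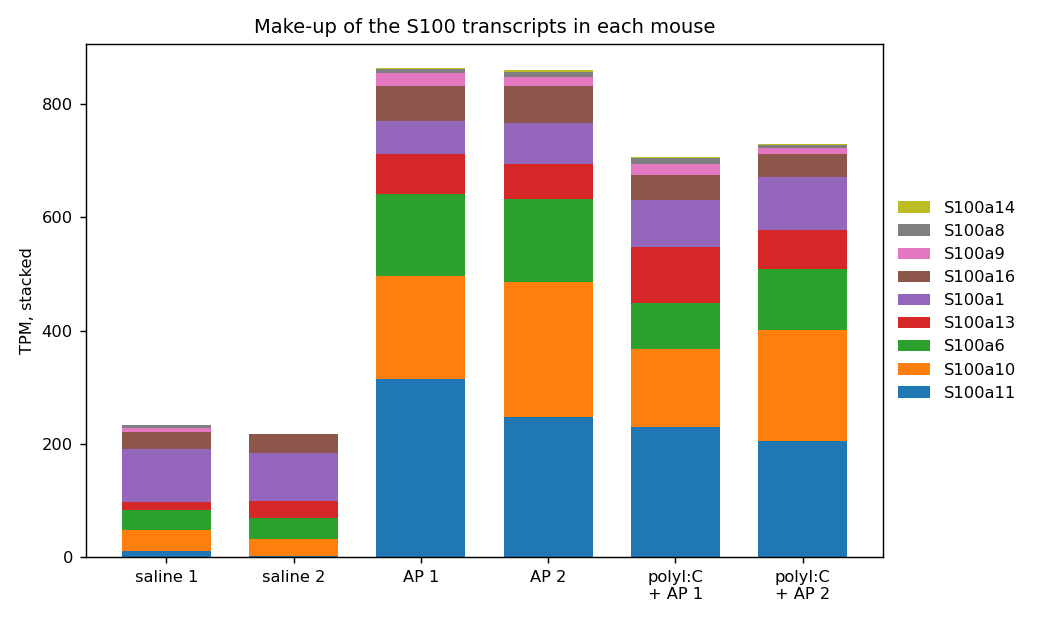
Stacked TPM of the 9 measured S100 genes (vertical axis) in each of the 6 mice (horizontal axis, 1 bar per mouse). The saline bars end at 234 and 218 TPM with S100a1 as the largest block, and the AP bars end at 862 and 860 TPM with S100a11 and S100a10 as the largest blocks.

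The order of the levels also differed between groups. In the saline mice S100a1 (89.2 TPM ± 7.45, SD, n = 2) stood above all other members, and S100a6, S100a10, S100a16 and S100a13, which came next, overlapped their neighbours in range. S100a11, S100a9, S100a8 and S100a14 followed, and no neighbours among these 4 were separated. In the AP mice S100a11 came first (281 TPM ± 46.5, SD, n = 2), then S100a10 (209 ± 39.5) and S100a6 (146 ± 1.63), each separated from the next. S100a13, S100a1 and S100a16 followed at 63.2 to 66.1 TPM on average without separation between S100a13 and S100a1 or between S100a1 and S100a16. S100a9, S100a8 and S100a14 came last, each apart from the next. The polyI:C + AP mice kept S100a11 and S100a10 at the top, while S100a6, S100a1 and S100a13 were neighbours that could not be separated.

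Most of the measured members were higher in AP. The members were chosen with earlier results of these data known, so the counts and medians below are descriptions. 6 of the 9 members were called higher in AP mice than in saline mice and none lower, where 18.2% of all genes tested were called higher and 4.03% lower. By class, 4 of the 5 epithelial members and 1 of the 2 measured myeloid members were called. Of the 2 members in neither class, S100a13 was called. Without S100a14, which passed the filter through the AP mice alone, 5 of 8 members and 3 of 4 epithelial members were called. The median difference of the members was 2.15 on the log2 scale, or 2.09 without S100a14, which is listed at 0 in both saline mice. The median over all genes tested was 0.45. After median-of-ratios scaling that all-gene median was 0.05, and 5 of the 9 members were still called higher. Without AP replicate 2 the count was 3.

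S100a11, whose protein binds annexins at membranes, had the largest difference. Its level was 10.7 and 1.65 TPM in saline mice, 314 and 248 TPM in AP mice, and 231 and 206 TPM in polyI:C + AP mice. Both AP mice lay far above both saline mice, and the polyI:C + AP mice lay just below the AP mice without overlap. The difference between AP and saline was 5.83 ± 0.67 (SE; 95% interval 4.22 to 7.45, limma, adjusted p = 0.00089), higher than that of 99.9% of all genes tested. It was 7.03 without saline replicate 1 and 4.64 without saline replicate 2, and called in both. The saline values rest on about 8.0 and 1.0 estimated reads, and the ratio of estimated reads, AP over saline, was 41.9 with a 95% counting interval of 21.9 to 91.9. Of the 412 stretches of 100 bases in the S100a11 transcripts, 33.98% also occur in another gene, mainly in Gm12854, so the share of reads that belongs to S100a11 itself is uncertain.

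S100a10, the annexin A2 partner also called p11, was at 38.0 and 30.7 TPM in saline mice, 181 and 237 TPM in AP mice, and 136 and 196 TPM in polyI:C + AP mice. The AP values were all above the saline values, and the ranges of AP with and without polyI:C overlapped. AP exceeded saline by 2.59 ± 0.22 on the log2 scale (adjusted p = 0.00030), a 6.00-fold change. In the saline mice S100a10 was 3.55 and 18.6 times as abundant as S100a11, and in the AP mice the ratio was 0.577 and 0.955. The sequence that S100a11 shares with another gene leaves this order in the AP mice uncertain.

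S100a6, also called calcyclin and raised in many proliferating cells, had AP replicates that lay close together. Its level was 34.1 and 36.7 TPM in saline mice, 145 and 147 TPM in AP mice, and 82.2 and 107 TPM in polyI:C + AP mice. None of the 3 groups overlapped, and the polyI:C + AP mice stood between the others. The difference between AP and saline was 2.03 ± 0.15 (adjusted p = 0.00019), a 4.09-fold change.

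S100a16, a widely expressed member, was at 29.4 and 33.5 TPM in saline mice, 61.5 and 64.9 TPM in AP mice, and 43.3 and 41.2 TPM in polyI:C + AP mice. The groups were ordered as for S100a6 and did not overlap. AP exceeded saline by 1.00 ± 0.15 (adjusted p = 0.0022), but the fold change of 1.996 fell just short of 2, so it was not called. With a pseudocount of 0.1 TPM, or without AP replicate 1 or saline replicate 2, it was called, at 1.01, 1.04 and 1.09.

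S100a14, a member found mainly in epithelia, was the lowest of the 9 measured members in every group. It is listed at 0 in both saline mice, and its level was 1.81 and 3.69 TPM in AP mice and 0.858 and 0.877 TPM in polyI:C + AP mice, so that it passed the filter on low values only through the group where it is high. These values correspond to about 6.7 and 17.2 estimated reads in AP mice and 3.9 and 5.0 in polyI:C + AP mice. Its adjusted p of 0.019 for AP against saline is therefore given as a description, and it was 0.0127 where no filter was applied, with no fold given against values of 0. The call was lost without AP replicate 2 (adjusted p = 0.077).

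**Figure D2:**
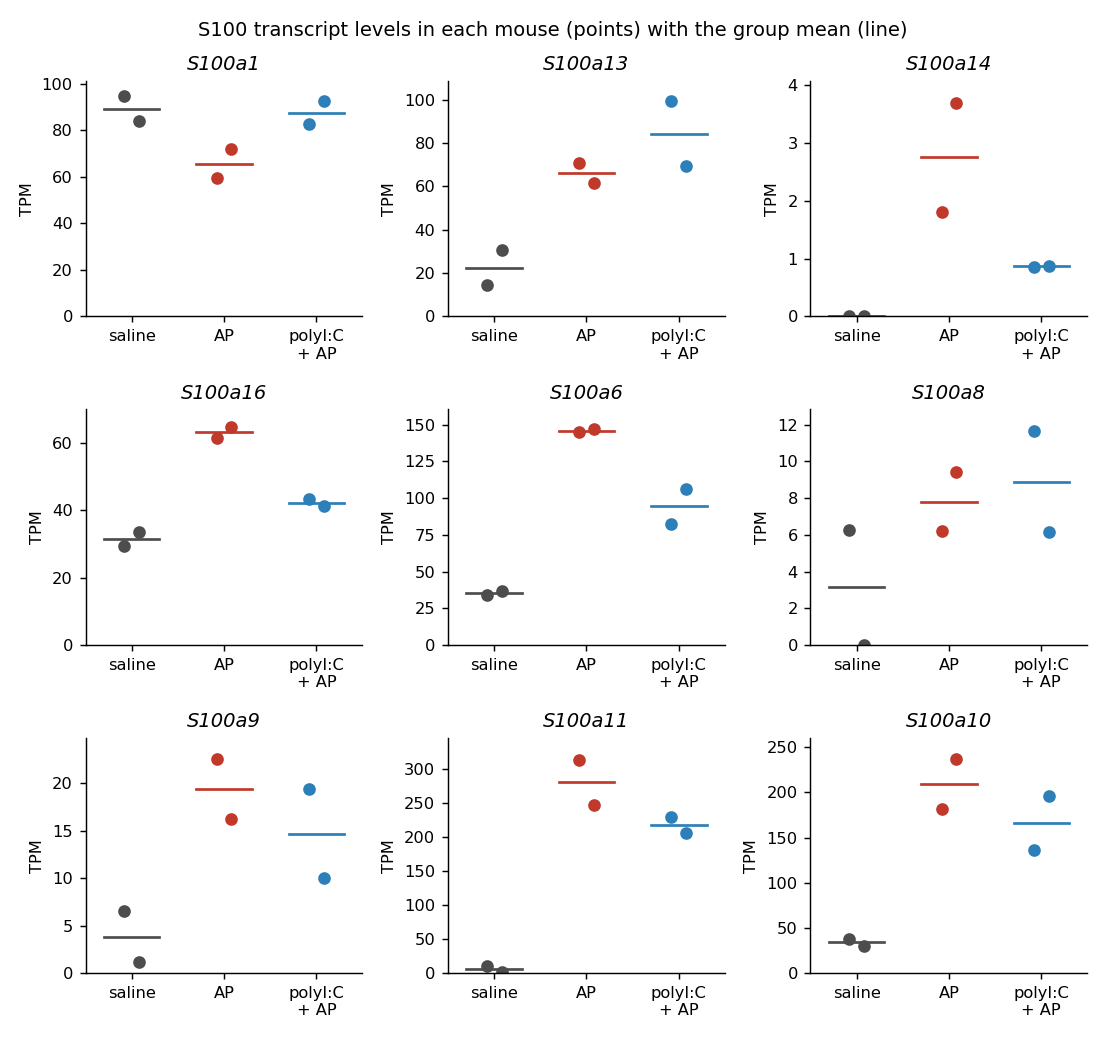
Level in TPM (vertical axis, from 0) of each of the 9 measured S100 genes in the saline, AP and polyI:C + AP mice (horizontal axis); points are mice and lines are group means, 2 mice per group. S100a6, S100a14 and S100a16 are highest in the AP mice and lie between saline and AP in the polyI:C + AP mice, whereas S100a1 is lowest in the AP mice.

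S100a1 and S100a13, which face each other across the 42 bases shown above, had differences of opposite sign in AP. S100a13 was at 14.4 and 30.6 TPM in saline mice, 70.7 and 61.6 TPM in AP mice, and 99.3 and 69.6 TPM in polyI:C + AP mice. All 4 mice with AP stood above both saline mice, and the difference between AP and saline was 1.63 ± 0.37 (adjusted p = 0.013), a 3.09-fold change. Without AP replicate 1, AP replicate 2 or polyI:C + AP replicate 1 the adjusted p was 0.132, 0.106 and 0.0586, and the call was lost.

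S100a1 was at 94.5 and 84.0 TPM in saline mice, 59.3 and 71.7 TPM in AP mice, and 82.5 and 92.4 TPM in polyI:C + AP mice. The AP mice were below both other groups without overlap. The difference from saline was -0.45 ± 0.18 (adjusted p = 0.090) and was not called. It was -0.87 after median-of-ratios scaling (adjusted p = 0.010) and -0.69 with voom (adjusted p = 0.037), under the 2-fold limit in both. The ratio of S100a13 to S100a1, which needs no scaling between samples, was 0.152 and 0.365 in saline mice, 1.19 and 0.859 in AP mice, and 1.20 and 0.753 in polyI:C + AP mice. S100a1 was thus the more abundant of the pair in both saline mice, and the ranges of the ratio overlapped between AP with and without polyI:C.

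The myeloid members were low throughout. S100a9 was at 6.59 and 1.16 TPM in saline mice, 22.5 and 16.3 TPM in AP mice, and 19.4 and 9.997 TPM in polyI:C + AP mice. Each mouse with AP was above both saline mice, and the 2 AP groups overlapped. AP exceeded saline by 2.52 ± 0.75 (95% interval 0.73 to 4.31, adjusted p = 0.035), a 5.73-fold change.

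This S100a9 call was the one lost under the most alternatives among the called members. The saline values rest on about 5.0 and 0.72 estimated reads, and the ratio of estimated reads was 4.39 with a counting interval of 1.88 to 12.6. The call was lost under 10 of 19 alternatives, with adjusted p between 0.0615 and 0.224. These include leaving out AP replicate 1 (0.224), AP replicate 2 (0.167), polyI:C + AP replicate 1 (0.103), polyI:C + AP replicate 2 (0.0951) or saline replicate 2 (0.126, with a difference of 1.47).

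S100a8, its partner in calprotectin, was at 6.26 and 0 TPM in saline mice, 6.18 and 9.40 TPM in AP mice, and 11.6 and 6.16 TPM in polyI:C + AP mice. Saline replicate 1 stood above an AP mouse and above a polyI:C + AP mouse, so the groups overlapped. The ratio of estimated reads, AP over saline, was 2.47 (95% counting interval 0.9993 to 7.32), against a fold of 4.42 from the log2 scale. The difference between AP and saline was 2.15 ± 1.16 (95% interval -0.63 to 4.92, adjusted p = 0.19) and was not called. Without saline replicate 1, which leaves a saline mouse at 0, it was called (4.02, adjusted p = 0.014), and without saline replicate 2 it was 0.27 (adjusted p = 0.78).

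S100a8 and S100a9 together amounted to 12.9 and 1.16 TPM in saline mice, 28.7 and 25.7 TPM in AP mice, and 31.0 and 16.2 TPM in polyI:C + AP mice. The AP range lay inside that of the polyI:C + AP mice. Their share of the summed level of the 9 members was 3.01% ± 3.51 in saline, 3.16% ± 0.242 in AP and 3.31% ± 1.54 in polyI:C + AP mice (SD, n = 2 each). S100a9 exceeded S100a8 by 3.64 and 1.73 times in the AP mice and by 1.67 and 1.62 times in the polyI:C + AP mice.

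When polyI:C preceded AP, no S100 gene was called against AP alone. The AP mice are shared between this comparison and that of AP with saline. None of the 9 members was called higher or lower by limma, and none reached an unadjusted p of 0.05 together with a 2-fold change, nor was any called with voom at that limit. Of all genes tested, 0.44% were called higher and 0.404% lower. The median difference of the members was -0.36, or -0.35 without S100a14, while that of all genes was 0.04.

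Estimates are given by class, and the difference between the classes was not tested. All 5 epithelial members had estimates below 0, with a median of -0.58, while 54.7% of all genes tested had estimates above 0. Of the 5, 4 lay below the AP mice without overlap, as did 22.1% of all genes tested. Without S100a14, which passed the filter through the AP mice alone, 3 of 4 did, and the median was -0.47. For S100a6 the difference was -0.64 ± 0.15 (95% interval -1.004 to -0.27, adjusted p = 0.13, unadjusted p = 0.0048). S100a16 gave -0.58 ± 0.15 (95% interval -0.92 to -0.23, adjusted p = 0.14, unadjusted p = 0.0060). With voom the adjusted p was 0.0473 for S100a16 and 0.0515 for S100a6, both below a 2-fold change.

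The other epithelial members had wider intervals. S100a10 differed by -0.34 (95% interval -0.88 to 0.19, adjusted p = 0.57) and S100a11 by -0.36 (95% interval -1.97 to 1.26, adjusted p = 0.88). S100a14 differed by -1.18 (95% interval -2.77 to 0.40, adjusted p = 0.50) from few reads. Halving of S100a11 or S100a14 and doubling of S100a11 lie inside these intervals. The intervals use a spread shared by all 3 groups, and for S100a11 the saline mice, at 10.7 and 1.65 TPM, lay furthest apart. With only the AP and polyI:C + AP mice in the limma fit, the adjusted p of S100a11 was 0.315. Its ratio of estimated reads, polyI:C + AP over AP, was 0.781 (95% counting interval 0.70 to 0.87).

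The myeloid estimates lay on both sides of 0, and their intervals cover all the epithelial estimates. S100a9 differed by -0.44 (95% interval -2.23 to 1.35, adjusted p = 0.86) and S100a8 by 0.14 (95% interval -2.63 to 2.92, adjusted p = 0.98). The S100a8 interval covers a 4-fold change in either direction, from a spread that includes the saline mice at 6.26 and 0 TPM. The ratio of estimated reads, polyI:C + AP over AP, was 1.06 for S100a8 (95% counting interval 0.623 to 1.82) and 0.749 for S100a9 (0.486 to 1.15), intervals that cover counting error and not the spread between mice. Without AP replicate 1 or polyI:C + AP replicate 1, S100a8 came out at -0.14 and -0.29, and S100a9 at 0.02 without polyI:C + AP replicate 2. Of the members in neither class, S100a1 differed by 0.42 (95% interval -0.01 to 0.84, adjusted p = 0.37) and S100a13 by 0.33 (95% interval -0.55 to 1.22, adjusted p = 0.76).

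**Figure D3:**
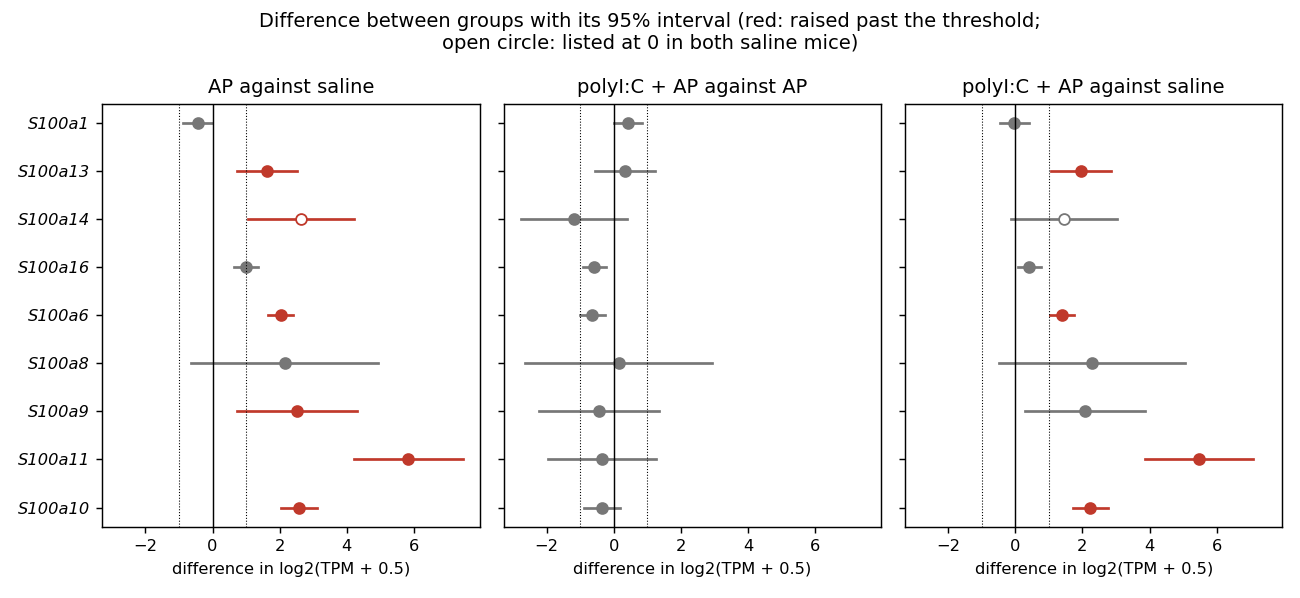
Difference between groups in log2(TPM + 0.5) (horizontal axis) with its 95% interval for each of the 9 measured S100 genes (vertical axis), in the 3 comparisons (panels). Red marks the 6, 0 and 4 genes called higher, dotted lines mark a 2-fold change, and open circles mark S100a14 against saline mice listed at 0.

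Against saline, 4 members were still called higher in polyI:C + AP mice and none lower, where 16.9% of all genes were called higher and 2.97% lower. The saline mice are the same as in the first comparison. So is the list of members, chosen with earlier results known, and this count too is a description. S100a11 led with 5.48 ± 0.67 (adjusted p = 0.0012; 6.67 without saline replicate 1 and 4.28 without saline replicate 2), followed by S100a10 with 2.24 ± 0.22 (adjusted p = 0.00056). S100a13 exceeded saline by 1.96 ± 0.37 (adjusted p = 0.0065) and S100a6 by 1.39 ± 0.15 (adjusted p = 0.00081). The S100a6 difference was 0.94 after median-of-ratios scaling, below the 2-fold limit, and the S100a13 call was lost without polyI:C + AP replicate 1 (adjusted p = 0.097).

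The remaining 5 members were not called in this comparison. S100a9 gave 2.08 (adjusted p = 0.068) and was called with the replicate number as a block (replicate block, adjusted p = 0.030) or without saline replicate 1 (3.12, adjusted p = 0.022). S100a8 gave 2.29 (adjusted p = 0.17) and was called without saline replicate 1 (4.17, adjusted p = 0.013), but not without saline replicate 2 (0.41, adjusted p = 0.647). S100a16 was at 0.42 (adjusted p = 0.059) and S100a1 at -0.03 (adjusted p = 0.92). S100a14, again with no fold against values of 0, had an adjusted p of 0.13, and it was called with a constant prior (0.0332) or a pseudocount of 0.1 TPM (0.024).

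Markers of cell types are given as lists because the tissue was not separated into cells. Beside the counts below, 18.2% of all genes tested were called higher and 4.03% lower in AP than in saline mice. Between polyI:C + AP and AP mice, 0.44% were called higher and 0.404% lower. The 5 epithelial S100 genes summed to 112 and 102 TPM in saline mice, 704 and 701 TPM in AP mice, and 493 and 550 TPM in polyI:C + AP mice. The 8 duct and simple epithelial markers summed to 2285 and 2635 TPM, 34452 and 36788 TPM, and 32302 and 25338 TPM in the same order, with no marker at 0 in any mouse. Of these 8 markers, 7 were called higher in AP mice and 0 in either direction between AP with and without polyI:C. The 5 acinar markers with values (of 12 listed) summed to 1893 and 1574 TPM in saline mice and 534 and 428 TPM in AP mice, with 4 called lower in AP and none at 0 in any mouse. In polyI:C + AP mice they reached 854 and 897 TPM, with 3 called higher than in AP mice. The part of these marker changes in the epithelial S100 levels was not tested.

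The myeloid members can be set beside 3 lists of blood cell markers. The 10 monocyte and macrophage markers summed to 606 and 414 TPM in saline mice, 2506 and 2853 TPM in AP mice, and 643 and 509 TPM in polyI:C + AP mice. In AP 8 of the 10 were called higher, and with polyI:C 5 were called lower than in AP. Lyz2 made up most of the AP sums, and without it the list summed to 161 and 107 TPM in saline mice, 615 and 735 TPM in AP mice, and 440 and 390 TPM in polyI:C + AP mice. The 5 general leukocyte markers summed to 52.7 and 37.1 TPM in saline mice, 172 and 206 TPM in AP mice, and 39.2 and 42.1 TPM in polyI:C + AP mice. Of these markers, 5 were called higher in AP and 1 lower with polyI:C. The AP values of S100a8 and S100a9 together lay within the range of the polyI:C + AP mice, and whether they differ in this from the lists was not tested.

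The list for neutrophils, in which calprotectin is most abundant, had values for 9 of its 12 markers, and Mpo, Ngp and Ly6g were not analysed here. It summed to 5.36 and 4.65 TPM in saline mice, 44.3 and 39.1 TPM in AP mice, and 14.4 and 7.33 TPM in polyI:C + AP mice. Of the 5 markers tested, Retnlg and Mmp8 were called higher in AP, Mmp8 having passed the filter on low values through the AP mice, and 0 were called in either direction with polyI:C. Elane is listed at 0 in all saline and AP mice, and Camp and Mmp8 at 0 in both saline mice. Retnlg was the highest of the list, and without it the sums were 3.10 and 1.88 TPM in saline mice, 8.90 and 11.1 TPM in AP mice, and 6.89 and 5.84 TPM in polyI:C + AP mice. These marker genes were named after their values were seen. The part of any of these cell types in the S100a8 and S100a9 levels was not tested.

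**Figure D4:**
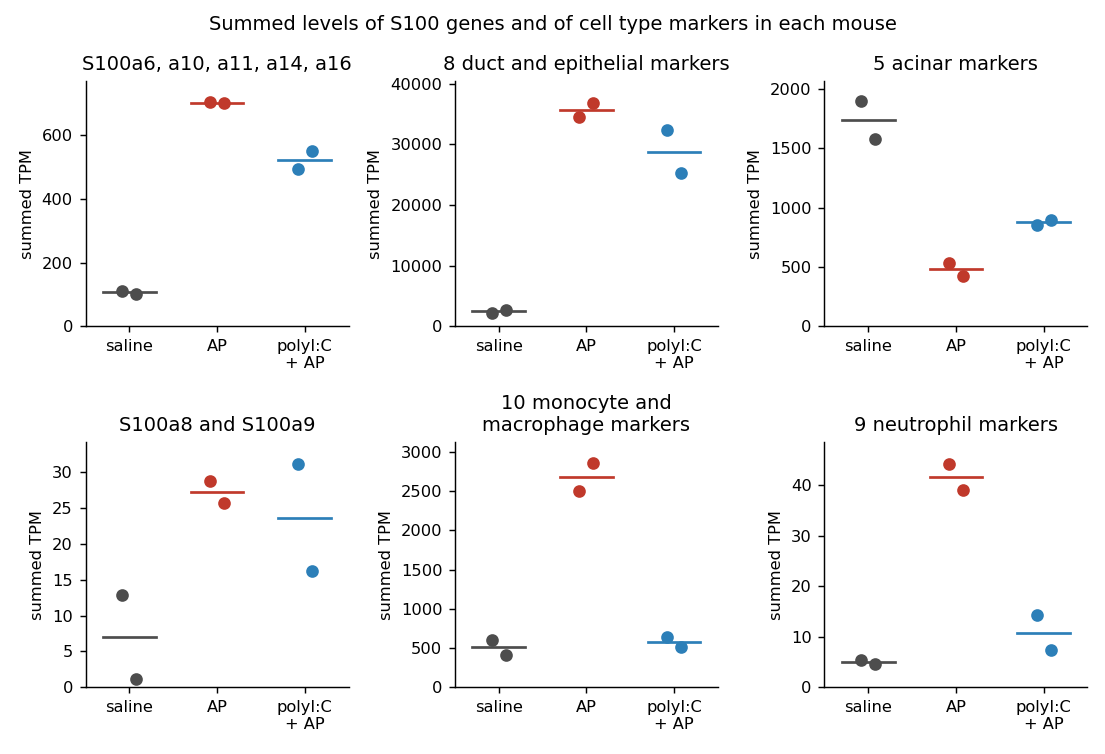
Summed TPM (vertical axes, from 0) of the epithelial and myeloid S100 genes and of 4 cell type marker lists in the 3 groups (horizontal axis); points are mice and lines are group means, 2 mice per group. Monocyte and macrophage markers stand at 2506 and 2853 TPM in AP mice and 643 and 509 TPM in polyI:C + AP mice. Lyz2 makes up most of these AP sums, and without it they are 615 and 735 TPM, against 440 and 390 TPM in polyI:C + AP mice. The S100a8 and S100a9 sum is 28.7 and 25.7 TPM in AP mice and 31.0 and 16.2 TPM in polyI:C + AP mice. A difference between the 2 sums was not tested.

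The 7 fibroblast markers, a cell type that also expresses S100a6, summed to 741 TPM ± 157 in saline, 883 ± 121 in AP and 766 ± 89.4 in polyI:C + AP mice (SD, n = 2 each), with 4 called higher in AP. Dcn was the highest of them, and without it the list summed to 181 and 90.4 TPM in saline mice, 489 and 544 TPM in AP mice, and 326 and 336 TPM in polyI:C + AP mice. Among the 4 endothelial and the 3 tested adipocyte markers none was called in any comparison. The single tested T and NK cell marker, Gzma, is listed at 0 in all saline and AP mice. It passed the filter on low values through the polyI:C + AP mice alone, so its call as higher with polyI:C is a description. That list summed to 0.612 and 1.71 TPM in AP mice against 28.6 and 49.1 TPM in polyI:C + AP mice. Without Gzma it summed to 0.612 and 1.71 TPM in AP mice and 1.62 and 2.15 TPM in polyI:C + AP mice.

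Many partners of S100 proteins inside the cell were also higher in AP. Of 12 partner genes tested, 7 were called higher in AP and 0 lower, where 18.2% of all genes tested were called higher. Their median difference was 1.09, against 0.45 over all genes tested. In polyI:C + AP mice 5 were called higher than in saline mice, as were 16.9% of all genes. The partner and receptor lists were also chosen with earlier results of these data known. Calls in these lists were not recomputed after median-of-ratios scaling, under which the all-gene median for AP against saline was 0.05. Anxa2, the annexin bound by S100A10, was at 29.1 and 25.9 TPM in saline mice, 346 and 442 TPM in AP mice, and 394 and 347 TPM with polyI:C before AP. It exceeded saline by 3.81 in AP (adjusted p = 2.4e-05), and the AP ranges with and without polyI:C overlapped (difference -0.08, adjusted p = 0.86). Anxa11 exceeded saline by 2.03 (adjusted p = 0.010), the non-muscle myosin heavy chain Myh9 by 1.68 (adjusted p = 8.0e-05) and Anxa5 by 1.497 (adjusted p = 0.00019). None of the 12 was called between AP with and without polyI:C.

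Receptors and surface partners of secreted S100 proteins formed the other list. Of the 7 tested among 8 listed, 4 were called higher in AP and 0 lower, where 18.2% of all genes tested were called higher. Their median difference was 1.00, against 0.45 over all genes tested, and Tlr4 and Alcam only just reached the 2-fold limit. Mcam exceeded saline by 1.53 (adjusted p = 0.016), Ly96, the co-receptor of TLR4, by 1.42 (adjusted p = 0.0087), Tlr4 by 1.03 (adjusted p = 0.010) and Alcam by 1.00 (adjusted p = 0.00028). Tlr4, a receptor for calprotectin, was at 4.94 and 6.81 TPM in saline mice, 11.7 and 13.1 TPM in AP mice, and 8.70 and 6.87 TPM with polyI:C. Its difference between AP with and without polyI:C was -0.65 (adjusted p = 0.26), and 0 of the 7 were called there. Mcam and Ly96 were the 2 genes of this list called higher in polyI:C + AP mice than in saline mice.

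The genes whose profile over the 6 mice was most like that of each member were sought among 9407 tested genes that averaged at least 10 TPM, by the root mean square of the differences between centred log2(TPM + 0.5) values. These are descriptions over 6 mice. The closest profiles were found for S100a16, with Csrp1, Mospd1 and Sdcbp at 0.048, 0.051 and 0.057. S100a1 was nearest to Poll, Mpc2 and Tle6 (0.082 to 0.086), S100a6 to Rpf2, Lzic and Rhoc (0.118 to 0.148), and S100a10 to the tubulin genes Tuba1b and Tuba1c and to Smc2 (0.147 to 0.188). S100a13 was nearest to Gm23442, Mab21l3 and Rsl1 (0.151 to 0.183), and S100a14 to Tubb6, Ctss and Ccdc80 (0.212 to 0.268).

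The remaining members had these nearest profiles. S100a11 was nearest to Tspan1, Kel and Anxa10 (0.488 to 0.572), S100a9 to Gm16184, Gm11522 and Ckap4 (0.220 to 0.344), and S100a8 to Snora78, Gm14382 and Gm14853 (0.421 to 0.533).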

How the data were processed

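The labels give each mouse its group and replicate number. Reads were trimmed (Trimmomatic), aligned to mm10 (STAR) and counted per gene (HTSeq) by the authors, who deposited TPM values per gene for each mouse. How counts became TPM is not given in the sources used here. The values were used as deposited. Members were matched by Ensembl identifier through GENCODE M21 (22490 of 22556 identifiers found). The members and gene lists were chosen with earlier results of these data known.

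limma 3.58.1 (R 4.3.3) was fitted to log2(TPM + 0.5) of the 16814 genes averaging at least 1 TPM, with 1 coefficient per group, all 6 mice, and a prior variance following log2(mean TPM × exon length + 1). The script was tested on simulated data. A call needed p of at most 0.05 after Benjamini-Hochberg adjustment and a 2-fold change. Between 51.0% and 62.1% of low values (up to 20 reads) lay within 0.1 of a whole multiple of the estimated read, against 19.6% to 20.5% with lengths shuffled, so reads are estimates and counting intervals cover counting error only. All members, at most 4 called genes per partner list (largest difference first), at most 4 neighbouring genes and the 3 nearest profiles per member are named. Alternatives were other pseudocounts, filters, priors, thresholds and scalings, voom on estimated reads, 2-group fits, a replicate block and leaving out each mouse.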

Additional observations from a re-analysis of the deposited data

How the results depend on the processing

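Of 510 member differences recomputed under 19 alternatives, 477 kept their direction and their side of the threshold, 16 lost the call, 11 gained it and 6 changed sign. The sign changed for S100a16 between polyI:C + AP and saline after median-of-ratios scaling (-0.0289), and for S100a1 in that comparison without saline replicate 1 (0.0556) or polyI:C + AP replicate 1 (0.0523; range with a mouse left out -0.114 to 0.0556). Between polyI:C + AP and AP it changed for S100a8 without AP replicate 1 (-0.14) or polyI:C + AP replicate 1 (-0.29; range -0.29 to 0.58), and for S100a9 without polyI:C + AP replicate 2 (0.0184; range -0.90 to 0.0184). None of these 6 was called. The number of members called higher in AP than in saline mice was 6, and leaving out a mouse gave 3 to 7, with 3 without AP replicate 2 and 7 without saline replicate 1. Against saline, the number called in polyI:C + AP mice was 4, and 3 to 6 with a mouse left out. Leaving out a mouse leaves its group with 1, which is assumed to vary like the others. No member was called between polyI:C + AP and AP under any of the 19 alternatives. The cause of these shifts was not tested.

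Deviations from the group means correlated at 0.0075 between saline and AP, -0.0039 between saline and polyI:C + AP, and 0.035 between the AP groups. These correlations cannot decide whether mice with equal replicate numbers were paired, because each group holds so few mice. With the replicate block 6 members were called higher in AP, 0 between the AP groups and 5 in polyI:C + AP against saline. With a filter of a mean of 5 TPM, S100a14 was not tested. S100a8, S100a9, S100a14 and the saline values of S100a11 rest on few reads, which limits what can be read from them.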

Other observations

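Among S100 genes outside the 10 members, S100g, which encodes the calcium carrier calbindin-D9k, was at 8.56 and 7.02 TPM in saline mice, 78.0 and 174 TPM in AP mice, and 72.3 and 1298 TPM in polyI:C + AP mice. It was called higher in AP than in saline mice (3.83 on the log2 scale, limma, adjusted p = 0.041). It was also called higher in polyI:C + AP than in saline mice (5.22, limma, adjusted p = 0.014), and not between the AP groups. In polyI:C + AP, replicate 2 stood far above the other mouse of its group. S100b and S100z were tested and not called in any comparison. S100a3, S100a5 and S100a7a stayed below 1 TPM in every mouse.

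Of the genes annotated between the outermost S100 members, 26 had values and 4 passed the filter on low values, namely Sprr1a, Gm4202, Lce6a and Crct1. In AP 2 of the 4, Sprr1a and Crct1, were called higher, as were 18.2% of all genes tested. Crct1 is listed at 0 in both saline mice, at 3.97 and 2.51 TPM in AP mice and at 0.324 and 0.772 TPM in polyI:C + AP mice. It passed the filter on low values through the AP mice, so its call is a description. Sprr1a, a component of the cornified envelope of squamous epithelia, is listed at 0 in both saline mice, at 62.7 and 29.8 TPM in AP mice and at 4.73 and 4.89 TPM in polyI:C + AP mice. It was the 1 gene of the 4 called lower with polyI:C, whereas none of the S100 members beside it was called in that comparison.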
